A study of Mus musculus with 81 samples.

Results

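A zinc finger gene cluster on the distal part of mouse chromosome 4 was described through its retroviral repeats. The interval, chr4:145000000-148500000 in the GRCm38 (mm10) build, was set by coordinates, and its members were all long terminal repeat (LTR) loci and all methylated-DNA windows that start in it. Of 970384 LTR loci with a deposited RNA value, 1535 (0.158%) were members, belonging to 209 repeat species. Of the methylated-DNA windows, 227 of 154773 in the F1 generation and 230 of 164382 in F3 were members. The interval was chosen by measured values of these tables, RNA at LTR loci and methylated-DNA counts. Which of them set its limits is not recorded here. Counts of members beside the shares of all loci or windows, in RNA and in methylated DNA, are therefore given as a description only. A choice by these values can itself raise such counts.

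The material came from fetal testes of OG2 mice, a strain whose germ cells carry an Oct4-driven EGFP transgene, at E18.5. Pregnant F0 dams had received 50 nM tributyltin (TBT), an organotin obesogen, or the vehicle dimethyl sulfoxide (DMSO), and F1 fetuses were their direct offspring, while F3 fetuses were 2 generations removed with no further exposure. Cell sorting gave the EGFP-positive germline populations P4 and P5, which differ in side scatter, and the EGFP-negative somatic population P6. RNA came from 5 DMSO- and 7 TBT-libraries in F1 P4, 4 and 7 in F1 P5, 5 and 7 in F1 P6, and 4 and 5 in each F3 population, and methylated DNA of P6 came from 3 DMSO- and 4 TBT-libraries in F1 and 5 and 7 in F3. All groups carry the transgene, and P6 is a mixture of all testicular cells without EGFP.

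Zinc finger genes of this kind stand in tandem arrays, and many encode a KRAB domain, through which the protein recruits the corepressor TRIM28 to retroviral repeats and other target DNA and brings about heterochromatin. Each LTR is the terminal repeat of an endogenous retrovirus, most often left alone after the internal part was lost, and an LTR can carry promoter, splice and polyadenylation signals that neighbouring genes use. Arrays of near-identical copies make it hard to place a short sequencing read at 1 copy.

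The interval held 126 annotated genes, of which 44 were protein coding and 63 were pseudogenes, and 18 of the protein-coding genes were named Zfp. Its members lay in introns in 894 cases, overlapped exons in 56 and were outside genes in 585. RMER6A with 77 loci, MLTR18A_MM with 59 of its 299 loci in the genome, RLTR40 with 52 and RMER15 with 49 were among the most frequent species. Repetition within the assembly was high. At least 50% of the 50-base stretches occurred again on chromosome 4 at 857 member loci (55.8%), against 7.98% of the 53039 other LTR loci of the chromosome, and 12.3% of the interval was unknown sequence. Of the members, 1354 had a read in some library and 181 had none, and the read counts formed 1267 distinct profiles, with 135 loci sharing every read count with another locus. Values of such loci are not independent measurements.

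RMER15 stood at the ends of some genes of the interval, 9 of its 18 Zfp genes among them. The annotated transcript end of 11 of the 44 protein-coding genes lay in an RMER15 locus (Zfp990, Zfp980, Zfp987, Zfp600, Zfp981, Zfp988, Zfp985, Zfp534, Zfp984, Gm13212 and Rex2), against 3 of the 1285 protein-coding genes on the rest of the chromosome. In all 11 the hexamer AATAAA, which directs cleavage and polyadenylation, lay 12 to 19 bases before the annotated end on the gene's strand. On either strand, which differs from the search at gene ends, AATAAA was present in 24 of the 49 RMER15 loci of the interval (49.0%). It was present in 36.3% of the 944 RMER15 loci elsewhere on the chromosome and in 38.0% of 506811 windows of 300 bases. RMER15 loci of the interval averaged 180 bases, so the windows are longer and these shares are not at equal length. Stretches of 30 bases from 6 of these ends, read from the mm10 genome on the gene's strand with the hexamer in capitals, are printed because the ends lie in these stretches. Over whole length the loci differ more. Among the 8 end loci of at least 240 bases, identity between pairs ran from 48.4% to 100% (median 72.3%, 28 pairs).
Zfp600 end: AATAAAgctgaatattttaacaaggttgac
Rex2 end: AATAAAgctgaatattttaacaaggttgac
Zfp984 end: AATAAAgctgaaagtttcaacaagtttgct
Zfp985 end: AATAAAgctgaaagattcaacaagtttgct
Zfp990 end: AATAAAgctgaaagattcaacaaatttgct
Zfp534 end: AATAAAactgaaagattcaacaaatttgct

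A second repeated feature was a row of 4 LTRs, MT2B1, RMER5, ORR1A4 and RMER17C, present 3 times, in introns of long noncoding genes (RMER17C of copy 1 overlapped an exon), and chosen after its values were seen. Copy 1 starts at chr4:146250606-146250883 with MT2B1, copy 2 at chr4:146591213-146591490 and copy 3 at chr4:147112743-147113022. The RMER5 sequence of 267 bases was identical in the 3 copies and is printed once. MT2B1 of copies 1 and 2 was also identical, and copy 3 was longer by the bases in capitals.
RMER5, copies 1 to 3: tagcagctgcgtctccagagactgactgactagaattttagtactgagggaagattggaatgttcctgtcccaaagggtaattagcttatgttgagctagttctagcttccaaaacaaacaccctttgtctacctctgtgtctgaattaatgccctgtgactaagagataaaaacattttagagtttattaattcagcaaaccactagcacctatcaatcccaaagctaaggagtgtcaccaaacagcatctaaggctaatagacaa
MT2B1, copy 1: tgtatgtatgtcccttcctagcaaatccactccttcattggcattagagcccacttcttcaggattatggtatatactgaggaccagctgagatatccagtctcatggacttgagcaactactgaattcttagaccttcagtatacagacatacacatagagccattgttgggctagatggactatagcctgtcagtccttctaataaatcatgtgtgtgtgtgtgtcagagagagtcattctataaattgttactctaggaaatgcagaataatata
MT2B1, copy 3: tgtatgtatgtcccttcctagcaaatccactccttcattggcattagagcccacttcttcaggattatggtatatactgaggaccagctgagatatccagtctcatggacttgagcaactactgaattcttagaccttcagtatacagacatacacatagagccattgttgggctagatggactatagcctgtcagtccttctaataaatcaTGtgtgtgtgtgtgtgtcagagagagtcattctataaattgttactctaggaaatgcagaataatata

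Windows of 100 bases from the methylated-DNA tables are printed with each CpG in capitals, because the assay captures DNA through its methylated CpG sites. The first 3 had a false discovery rate (FDR) under 0.05 between exposures in F1, and the last held the most CpG sites (14) of the member windows in F3.
window chr4:145560501-145560600: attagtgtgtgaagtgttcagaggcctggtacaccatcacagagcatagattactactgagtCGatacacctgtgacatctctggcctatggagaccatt
window chr4:145560601-145560700: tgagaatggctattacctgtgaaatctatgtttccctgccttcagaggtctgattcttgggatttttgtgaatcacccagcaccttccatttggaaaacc
window chr4:146740801-146740900: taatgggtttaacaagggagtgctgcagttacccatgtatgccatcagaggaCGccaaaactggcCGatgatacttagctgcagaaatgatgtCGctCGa
window chr4:145837301-145837400: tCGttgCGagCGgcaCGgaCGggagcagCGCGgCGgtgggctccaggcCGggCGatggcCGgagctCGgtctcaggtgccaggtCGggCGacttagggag

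Reads at LTR loci per library ranged from 2824806 to 6304053 in F1 and from 246520 to 8161548 in F3. The germ cell marker list (8 of its 10 genes had an LTR locus to read them by) summed to 8945 to 21626 normalised counts per 1000000 reads (CPM) in F1 germline libraries and to 13.9 to 39.4 in F1 P6, and the Sertoli cell list to at most 90.6 in germline and 678 to 1022 in P6. The Leydig and interstitial list was less clear, since it reached 207 CPM in F1 P4 library 44-3 while F1 P6 libraries had 200.2 to 427. In F3, 5 germline libraries stood apart, P4 TBT 5 and 9 and P5 DMSO 1, DMSO 2 and TBT 5, with 246520 to 2017404 reads and germ cell sums of 140 to 2377 CPM, against 7584 to 17880 in the other 13. In F3 P6, DMSO libraries 3 and 4 had germ cell sums of 235 and 200.3 CPM and the other 7 had 12.2 to 20.03. Germline and P6 libraries were normalised in separate tables, so levels of P4 or P5 beside P6 are given without a test. In bulk RNA, fewer cells of a type and less RNA per cell cannot be told apart.

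The share of LTR reads that fell in the interval was higher in the germline than in somatic cells. It averaged 0.201% ± 0.0237 (SD, n = 12) in F1 P4, 0.235% ± 0.0178 (n = 11) in F1 P5 and 0.101% ± 0.0164 (n = 12) in F1 P6, and 0.302% ± 0.157, 0.357% ± 0.141 and 0.104% ± 0.00569 (n = 9 each) in F3. F1 germline libraries ranged from 0.162% to 0.261% and F1 P6 libraries from 0.0720% to 0.130%, so the populations did not overlap. In F3 the germline values ran from 0.171% to 0.609%, and all 5 libraries that stood apart were at or above 0.528%, while the other 13 lay at or below 0.306%.

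**Figure D1:**
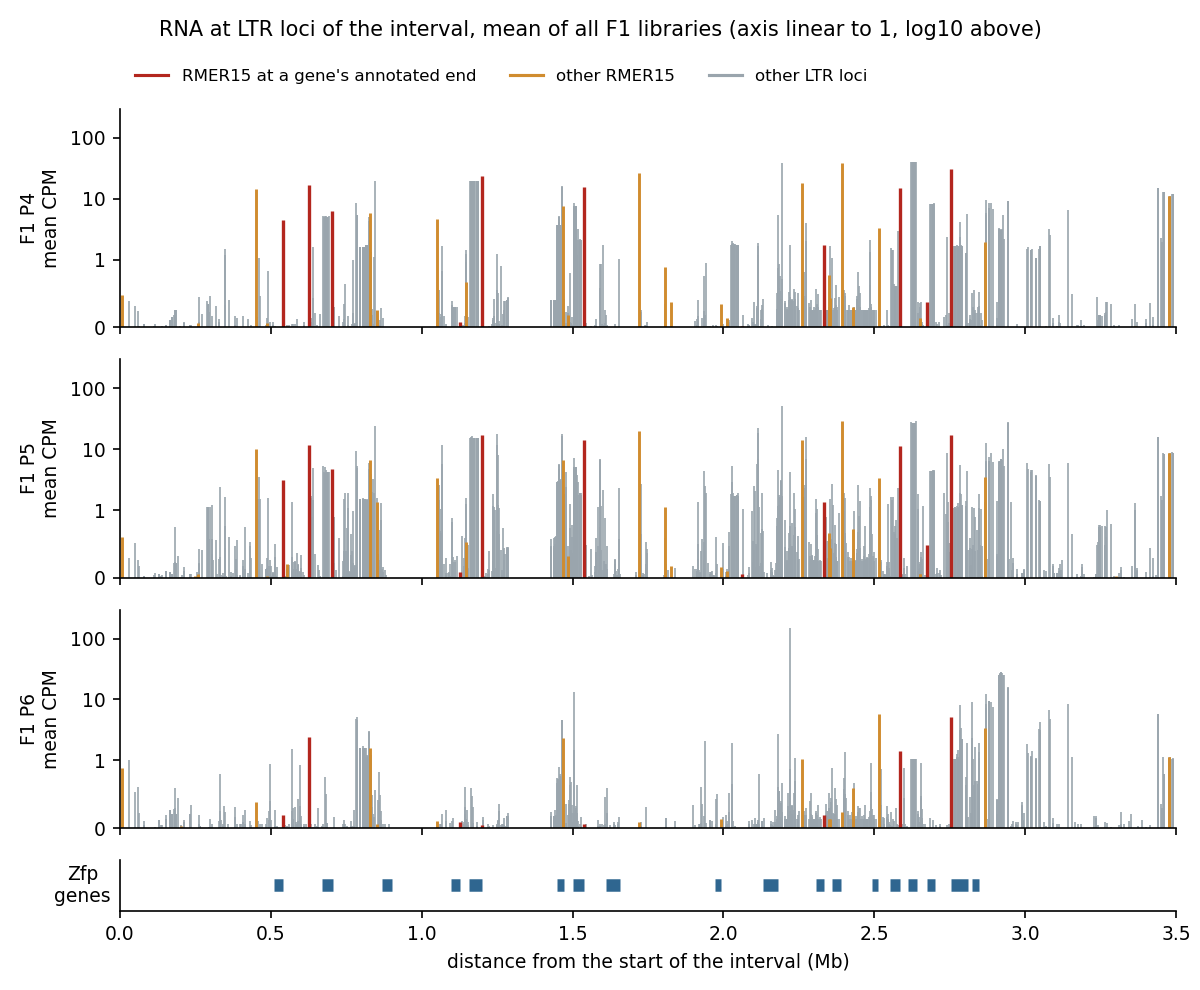
Mean CPM of each LTR locus along the interval in F1 P4, P5 and P6 (vertical axes linear to 1 and log10 above), with the positions of the zinc finger genes in the lowest panel. RMER15 loci at gene ends and other RMER15 loci are tall in P4 and P5 (up to 38.7 CPM in P4) and mostly near 0 in P6, where the MuLV-int locus with 148 CPM is the tallest.

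RMER15 loci were read mainly in the germline. Its 49 loci took 251 reads per 1000000 LTR reads on average in F1 P4 (189 to 321), 214 in F1 P5 (155 to 257) and 28.8 in F1 P6 (20.3 to 40.7). That was 12.4%, 9.10% and 2.87% of the interval's reads. In F3 P4 the median was 337 (lowest 167, highest 2563), in F3 P5 312 (136 to 2706) and in F3 P6 24.9 (23.4 to 36.9). The highest F3 values were those of the 5 libraries that stood apart, 2563 and 2189 in P4 TBT 5 and 9, and 937, 839 and 2706 in P5 DMSO 1, DMSO 2 and TBT 5, whereas the other 13 lay between 136 and 745. The part of low depth and low germ cell markers in these values was not tested.

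**Figure D2:**
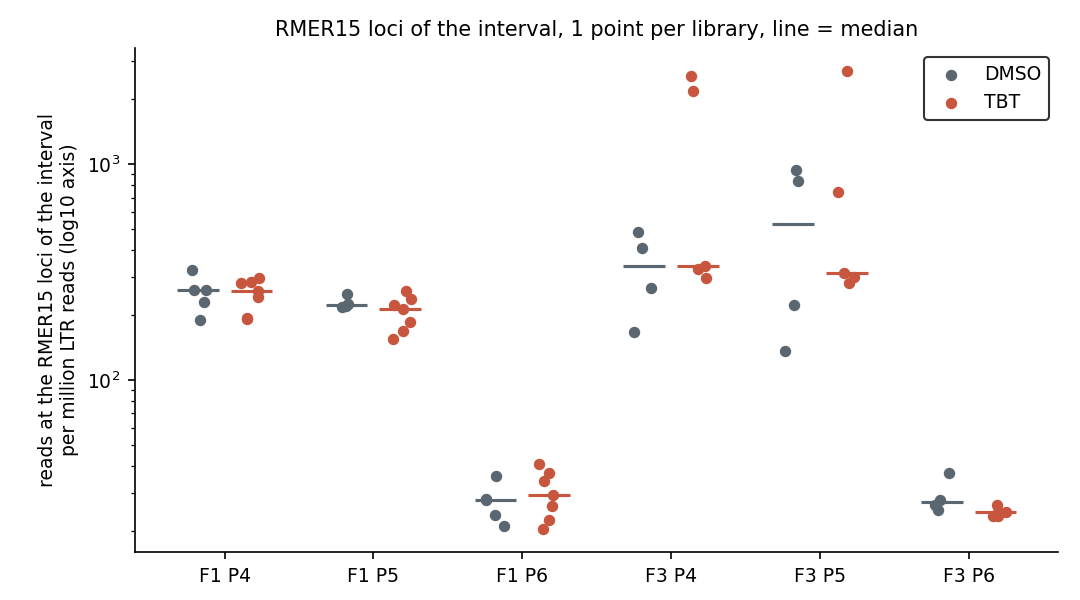
Reads at the 49 RMER15 loci per 1000000 LTR reads (log10 axis), 1 point per library, by generation, population and exposure, with a line at the median. The F1 germline libraries lie between 155 and 321 and the P6 libraries between 20.3 and 40.7, while F3 germline libraries spread from 136 to 2706.

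In the F1 germline, RMER15 loci at gene ends had a higher median level than the other RMER15 loci, which is a comparison of loci within these libraries. In F1 P6 they lay below the loci with AATAAA and no gene end. The 11 loci at a gene end had a median of 6.42 CPM in F1 P4, 4.73 in P5 and 0.0840 in P6, and 6 of them reached 5 CPM in P4. The 13 loci that held AATAAA but no gene end had medians of 1.97, 3.31 and 0.138 CPM, and the 25 without the hexamer 0.138, 0.0951 and 0. These levels are per locus and were not scaled to length. RMER15 loci of the interval averaged 180 bases, and 8 of the 11 end loci had at least 240. The part of length in the order of the classes was not tested. Some loci away from gene ends were as high. RMER15 at chr4:147392901-147393180, in an intron of the noncoding gene Gm26624 and 1.90 kb from Zfp978, averaged 38.7 ± 7.37 CPM in F1 P4 (26.8 to 46.1), 29.0 ± 6.97 in P5 and 0.233 in P6.

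The ends of Zfp600 and Zfp984 were read at different levels in somatic cells. RMER15 at the end of Zfp600, chr4:146198531-146198776, had 15.1 to 41.4 CPM in F1 P4 (median 22.5), 11.7 to 24.0 in F1 P5 (median 17.7) and no read in 11 of 12 P6 libraries. In F3 P4 its values were 98.6, 68.0, 22.4 and 27.6 CPM in DMSO 1 to 4 and 197, 31.2, 51.6, 42.4 and 241 in TBT 5 to 9. Both libraries over 100 were among those that stood apart. RMER15 at the end of Zfp984, chr4:147753948-147754196, was read in somatic cells as well, with 23.0 to 41.9 CPM in F1 P4, 12.7 to 25.5 in F1 P5 and 2.72 to 7.88 in F1 P6. In F3 it had 24.3 to 144 CPM in P4, 5.12 to 122 in P5 and 2.69 to 6.30 in P6, so P5 overlapped P6 through DMSO library 3 of P5. Per kilobase in F1 P4 the order was 138 CPM per kb at the locus near Zfp978, 122 at Zfp984, 96.3 at RMER15 chr4:146721293-146721572 and 95.5 at Zfp600, and the last pair did not differ beyond its spread between libraries. The Zfp600 end and the Rex2 end are identical over their whole RMER15 length, yet the first was assigned 5587 reads over all libraries and the second 7.

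LTR loci inside zinc finger genes followed the same division. The 18 genes held 256 loci, and the highest locus of each gene was higher in P4 than in P6 for 14 genes in F1 and 15 in F3, with median levels of 3.13 CPM in F1 P4, 2.70 in P5 and 0.189 in P6. Of 18 comparison genes that are not zinc finger genes, 13 had a locus in the interval, and 4 in F1 and 6 in F3 were higher in P4 than in P6. That list holds Dhrs3, which lies outside the interval, and leaves out Plod1. In both lists the locus of a gene was picked by its mean over all populations, most of them germline, so the choice leans to germline levels. In Zfp979, the RMER6A locus at chr4:147639643-147640037 had 29.2 to 47.7 CPM in F1 P4 (median 40.7), 23.9 to 34.2 in F1 P5 (median 28.6) and 0.520 to 2.08 in F1 P6 (median 0.793). In F3 P4 the values were 49.2, 45.5, 38.9 and 50.0 in DMSO and 17.6, 46.4, 46.2, 45.9 and 15.6 in TBT 5 to 9, so the 2 libraries that stood apart were the lowest here and the highest at Zfp600. Of the 13 loci in Zfp979, 10 lay within 2 reads of their median in every F1 P4 library although they span 9.31 kb, and they count as 1 measurement.

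P6 had its own tall loci. MuLV-int at chr4:147219403-147226971, the internal part of a murine leukemia virus-like provirus in an intron of noncoding genes, had 72.5 to 180 CPM in F1 P6 (median 158) and 143 to 213 in F3 P6 (median 201). In the germline it did not pass 11.8 CPM, with means of 1.77 in F1 P4 and 4.30 in F1 P5. RLTR13D3 at chr4:147195424-147196540, in introns of the same genes, had the reverse order, with 38.8 ± 14.5 CPM in F1 P4, 50.4 ± 13.7 in F1 P5 and 0.669 ± 0.827 in F1 P6. Loci in Plod1, which encodes a collagen-modifying lysyl hydroxylase, were also higher in somatic cells, and RLTR40 at chr4:147919384-147919492 averaged 3.13, 6.99 and 28.1 CPM in F1 P4, P5 and P6.

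P4 and P5 were compared within each generation by limma on log2(value + 1 unit), a unit being the value of 1 read, with a minimum mean of 5 units for a locus to be tested. In F1, 121 of 293 tested members had an FDR under 0.05, 67 higher in P5 and 54 lower (41.3%), where 37.3% of all 101401 tested loci did, 17.0% higher and 20.3% lower. Without library 44-3, which is P4 only, 72 members were higher and 35 lower of 297 tested, against 17% and 20.5% of all loci. With median-ratio scaling, which moved the median of all loci from -0.11 to 0.02 on the log2 scale, the members split into 72 higher and 26 lower, and all loci into 19.7% higher and 11.2% lower. Loci in zinc finger genes made up most of the lower ones, with 47 of 123 lower and 3 higher in P5, against 4 lower and 25 higher of 75 in other protein-coding genes and 3 lower and 39 higher of 95 outside protein-coding genes. Of those 47 lower loci, 39 lay in Zfp979, Zfp600 or Zfp534, where neighbouring loci share values, and counted by gene 6 of 12 tested zinc finger genes had a lower locus and 3 a higher one. Median-ratio scaling left 24 lower and 4 higher in the zinc finger genes. The zinc finger class holds only genes named Zfp, so Rex2 and Gm13212, whose ends lie in RMER15 as well, fall to the other protein-coding genes.

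Zfp979 and Zfp534 were lower in P5 under both scalings. Marker sums moved with the populations as well, from a median of 15826 CPM in F1 P4 to 9990.1 in F1 P5 for germ cells, from 20.8 to 36.3 for Sertoli cells and from 15.5 to 30.6 for blood and vessel, and their part in the differences between P4 and P5 was not tested. All 13 tested loci of Zfp979 were lower in P5, with log2 differences of -0.53 to -0.46, and all 7 of Zfp534, of which 4 held the same 8.32 ± 2.18 CPM in P4 and 4.36 ± 1.03 in P5 (log2 difference -0.93, SE 0.16, FDR 3.55e-05). RMER15 at the end of Zfp984 averaged 30.4 ± 6.01 CPM in P4 and 17.0 ± 3.85 in P5 (log2 difference -0.79, SE 0.12, FDR 4.72e-06), and the populations overlapped. In Zfp600, all 19 loci passed the test as lower in P5, but none passed with median-ratio scaling. In F3 no member was called lower in P5, and the Zfp979, Zfp534 and Zfp600 loci had medians of -1.33, -1.20 and -0.85 on the log2 scale.

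Higher in P5 were loci of the copied row and of 2 genes near the end of the interval. All 13 tested loci in Plod1, named after its values were seen, and all 8 in Clcn6, a chloride-proton exchanger gene, were higher in P5 in F1 under both scalings, with median log2 differences of 1.00 and 1.63. MTEa at chr4:147944100-147944449 in 2510039O18Rik, named after its values were seen, rose from 9.24 ± 1.99 to 27.8 ± 4.11 CPM (log2 difference 1.55, SE 0.12, FDR 3.89e-12), and the populations did not overlap. Of the members higher in P5, 9 were RMER10A and 5 ORR1A3. RMER10A at chr4:146478207-146478608 had 0 to 1.02 CPM in F1 P4, with 7 of 12 libraries at 0, and 1.08 to 9.99 in F1 P5 (log2 difference 3.35, SE 0.41, FDR 8.93e-08). RMER10A at chr4:145840089-145840495 had at most 0.267 CPM in P4 and 0.673 to 10.01 in P5 (median 2.63) (log2 difference 3.33, FDR 3.32e-08), and ORR1A3 at chr4:146478902-146479040 at most 0.493 and 0.673 to 4.65 (log2 difference 3.09, FDR 2.27e-07).

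In the copied row RNA was higher in P5 at each tested LTR in F1, and read levels differed between copies. MT2B1 of copy 1 had 0 to 1.72 CPM in F1 P4, with 6 of 12 libraries at 0, and 1.68 to 22.1 in F1 P5 (median 11.7), and no read in P6 (log2 difference 4.08, FDR 2.48e-10), and P4 and P5 overlapped. RMER5 of copy 1 rose from a mean of 1.23 to 17.6 CPM (log2 difference 4.44, FDR 5.36e-10) and that of copy 3 from 1.67 to 18.1 (log2 difference 4.27). RMER5 of copy 2, although identical in sequence, had 0 in F1 P4 and 0.0574 CPM in P5 and was not tested, with 5 reads over all libraries against 2106 and 2235 for copies 1 and 3. ORR1A4 rose in all 3 copies, from 0.515 to 8.03, from 0.576 to 6.91 and from 1.90 to 22.2 CPM in copies 1 to 3. The lowest P5 library at MT2B1 was the one labelled 48-4 with 1.68 CPM, and the highest P4 library was 44-3 with 1.72, the library with the highest Leydig and interstitial sum of the germline. That P4 library had 8.87 and 12.1 CPM at RMER5 of copies 1 and 3 and 13.1 at ORR1A4 of copy 3, and without it the P4 means there were 0.531, 0.727 and 0.883 CPM. The calls at these 3 loci held in all 12 leave-outs. How reads with several equally good places were assigned is not given in the sources used here, so the split between copies is uncertain.

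**Figure D3:**
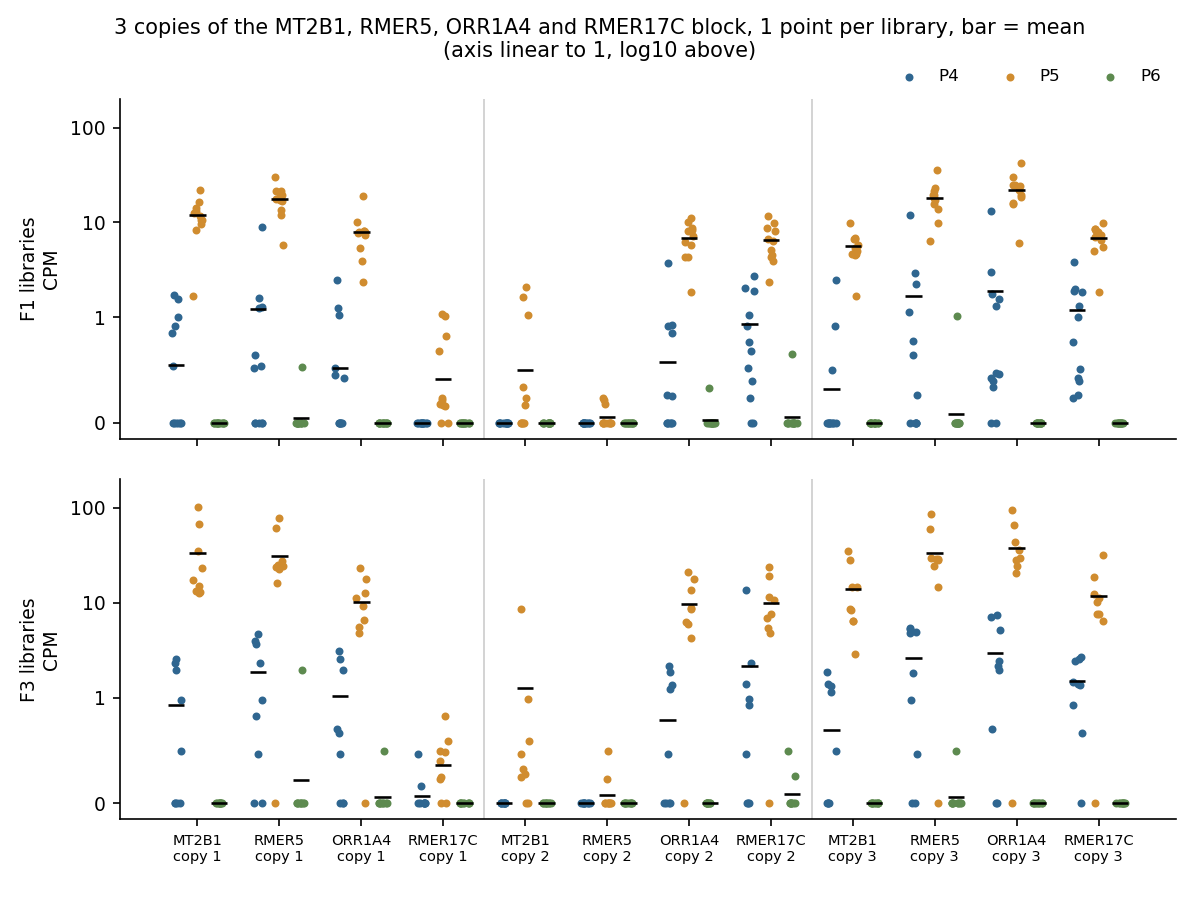
CPM of the 4 LTRs of the row in its 3 copies, 1 point per library with a bar at the mean, for P4, P5 and P6 in F1 (above) and F3 (below), on axes linear to 1 and log10 above. The mean of P5 lies above that of P4 at MT2B1 of copies 1 and 3 in both generations, with 11.9 against 0.548 CPM in copy 1 of F1, P6 is at 0 there, and RMER5 of copy 2 stays near 0 in every population.

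In F3, 13 of 376 tested members had an FDR under 0.05 between P4 and P5, all of them higher in P5 (3.46%), where 0.996% of all loci were called, 0.985% higher and 0.0112% lower. MT2B1 of copy 1 had 0 to 2.57 CPM in F3 P4. In F3 P5 it had 68.0, 103, 23.5 and 12.7 in DMSO 1 to 4 and 13.4, 17.4, 13.0, 15.2 and 35.5 in TBT 5 to 9 (log2 difference 5.05, SE 0.84, FDR 0.00174), and the groups did not overlap. MT2B1 of copy 3 had at most 1.87 CPM in F3 P4 and 2.87 to 35.6 in F3 P5 (log2 difference 4.06, SE 0.80, FDR 0.00820). MT2B1 at chr4:145756138-145756249 had no read in any F3 P4 library and 4.21 ± 5.33 CPM in F3 P5 (FDR 0.00986), and the call was lost without label number 6 (FDR 0.0510) and without the numbers that had a shallow library (FDR 0.0557). P5 DMSO 1 and 2, which stood apart, were the highest libraries at each of these MT2B1 loci. They had 28.6 and 35.6 CPM at copy 3 and 8.86 and 16.7 at chr4:145756138-145756249. RMER5 of copy 1 passed in F3 (log2 difference 3.73, FDR 0.0408) but lost the call in 8 of 9 leave-outs (FDR up to 0.191). RMER5 of copy 3, ORR1A4 of all copies and RMER17C of copies 2 and 3 did not pass, with log2 differences of 2.52 to 3.53 and FDRs of 0.0516 to 0.187. Each of these 6 loci was called in 2 to 6 of the 8 or 9 alternative settings, with FDRs down to 1.33e-05, and without label number 5. An IAPEz-int locus in Zfp933, named after its values were seen, had 0.0964 CPM in P4 and 3.53 in P5. Of the 13 members, 5 were tested in F1 and all 5 were higher in P5 there. Without both libraries of each label number that had a library under 2000000 reads, 20 of 392 members were called, all higher, against 1.30% of all loci higher and 0.00456% lower.

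Between TBT and DMSO, 1 member passed the test in the 6 RNA comparisons, a MYSERV-int locus beside Fv1 in F3 P6. No member had an FDR under 0.05 in F1 P4 (0 of 253, 0% of all loci), in F1 P5 (0 of 378, 0.0106%), in F1 P6 (0 of 85, 0.00341%), in F3 P4 (0 of 304, 0%) or in F3 P5 (0 of 371, 0%). At an unadjusted p under 0.05 there were 4 members in F1 P4 (against 7.09% of all loci), 36 in F1 P5 (6.89%), 2 in F1 P6 (3.68%), 21 in F3 P4 (1.65%) and 7 in F3 P5 (1.01%). The likelihood ratio test of edgeR on recovered reads called 1 member in F1 P4 (against 0.0982% of all loci), 0 in F1 P5 (0.320%), 0 in F1 P6 (44 of 88037 loci), 0 in F3 P4 (0.00463%) and 4 in F3 P5 (3.13%), and its quasi-likelihood test called 0 members in each of the 5 and 0, 4, 3, 0 and 0 loci in all. The difference of the TBT effect between P5 and P4 had an FDR under 0.05 at 0 of 293 members in F1, where 0.000986% of all loci were called, each of them higher, and at 0 of 376 in F3 (0% of all loci). At an unadjusted p under 0.05 there were 16 in F1 (against 4.32% of all loci) and 8 in F3 (1.39%). Members with the smallest p were ORR1A4 of copy 3 in F1 P4 (log2 difference -2.08, FDR 0.617), RLTR17B_Mm in an intron of Mfn2 in F1 P5 (4.17 against 7.54 CPM, log2 difference 0.82, FDR 0.341), RLTR22_Mur in Zfp933 in F1 P6 (1.20, FDR 0.999), MYSERV6-int in F3 P4 (3.30, FDR 0.870) and RMER15 at chr4:146050676-146050975 in F3 P5 (3.57, FDR 1.00). At this ORR1A4 locus, F1 P4 DMSO library 44-3 had 13.1 CPM. The other DMSO-libraries had 0.462 to 2.97 and the TBT-libraries 0 to 1.75. MYSERV6-int had 9.48 and 15.6 CPM in F3 P4 TBT 5 and 9, which stood apart. It had 0.466 to 1.17 in TBT 6 to 8 and 0 to 0.234 in DMSO.

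MYSERV-int at chr4:147870981-147871807, an internal retroviral stretch outside genes, lay 622 bases past the end of Fv1 and 1791 bases before Mfn2. In F3 P6 it had 18.8, 17.1, 22.3 and 19.7 CPM in DMSO 1 to 4 and 10.8, 10.4, 8.36, 6.41 and 9.15 in TBT 5 to 9. Every TBT-library was below every DMSO-library, with means of 9.02 ± 1.76 (n = 5) and 19.5 ± 2.17 (n = 4), a log2 difference of -1.11 (SE 0.16) and an FDR of 0.00601. It was the only called member of 140 in F3 P6, where 0.0343% of all loci were called and 0.0143% were lower. Leaving out each library in turn gave an FDR of 0.00587 to 0.0330. DMSO libraries 3 and 4, with the higher germ cell sums, had 22.3 and 19.7 CPM, and DMSO libraries 1 and 2 had 18.8 and 17.1.

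The same locus did not pass in the other comparisons. In F1 P6 it averaged 14.0 CPM in DMSO and 11.2 in TBT (log2 difference -0.33, FDR 0.999), in F1 P5 17.5 ± 6.13 and 10.2 ± 3.14 (log2 difference -0.76, FDR 0.502), and in F1 P4 the log2 difference was -0.49 (FDR 0.769). In F3 P4 and P5 the log2 differences were 0.16 and -0.49 with standard errors of 1.68 and 1.45. Whether the difference in F3 P6 is larger than that in F1 P6 was not tested. Fv1, a retroviral gag-derived gene whose product restricts murine leukemia viruses, is itself listed as 2 ERVL-B4-int loci, and in F3 P6 these had log2 differences of 0.19 (FDR 0.861) and 0.16 (FDR 0.900). The RLTR11C_MM loci on either side of MYSERV-int had -1.28 (FDR 0.407) and -0.64 (FDR 0.674).

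**Figure D4:**
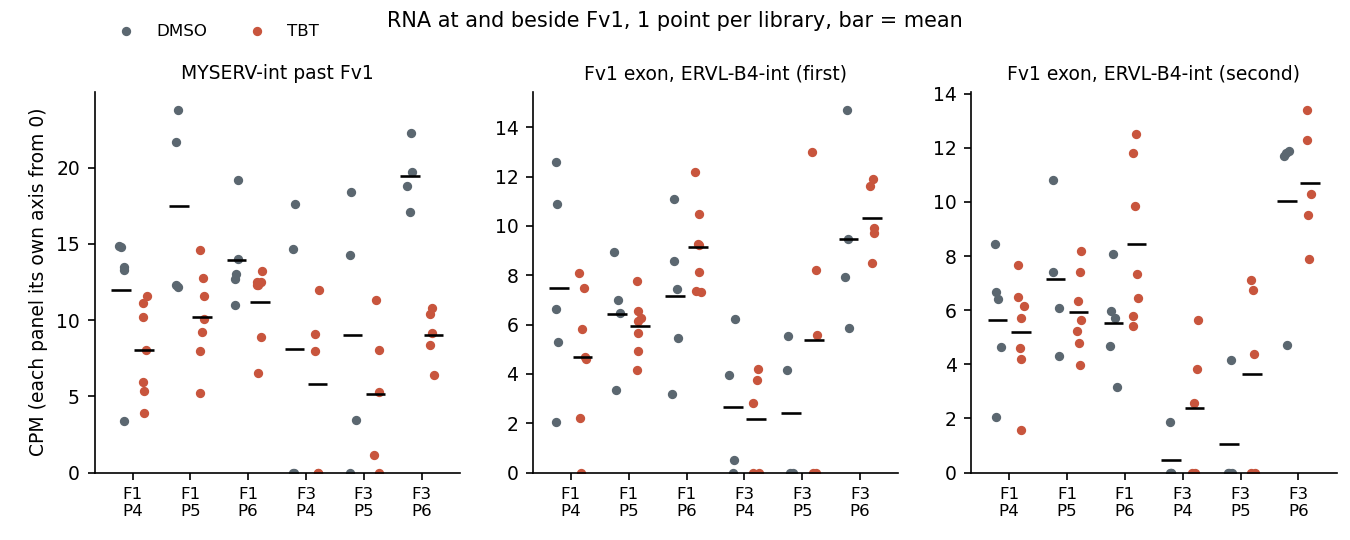
CPM of the LTR loci at and beside Fv1 in each library, DMSO and TBT, by generation and population, with a bar at the mean and an axis from 0 in each panel. At MYSERV-int the F3 P6 TBT-libraries lie between 6.41 and 10.8 and the DMSO-libraries between 17.1 and 22.3.

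F3 P6 also had many members with small unadjusted p. There were 35 of 140 at p under 0.05 (25%), against 7.96% of all loci, 25 higher and 10 lower in TBT. Loci of Zfp992 gave 21 of the 35, out of 22 tested, with log2 differences from -1.24 to 2.34 and a lowest FDR of 0.244. Of these 21 loci, 17 had the same DMSO mean of 0.275 CPM, so they are not separate measurements. RLTR40 at chr4:146450704-146451264 in Zfp992 had 0.275 ± 0.428 CPM in DMSO and 1.69 ± 0.589 in TBT and did not overlap. The likelihood ratio test of edgeR called 18 members in F3 P6, 17 higher and 1 lower, where it called 0.320% of all loci, and all 17 lay in Zfp992.

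Methylated DNA in P6 was read in 100-base windows with totals of 701493 to 1913353 counts per F1 library and 1105120 to 1556376 per F3 library. The interval took 0.269% to 0.292% of them in F1 and 0.209% to 0.242% in F3. Windows without a CpG made up 125 of 227 members in F1 and 133 of 230 in F3. Among the members, 21 in F1 and 38 in F3 lay in unknown sequence, where no CpG can be counted. The mean count of windows without a CpG was 10.97 in the interval and 5.31 elsewhere in F1, and 8.28 and 4.48 in F3. At each level from 1 to 4 CpG sites the mean was also higher in the interval, in both generations. These means are a description only, since the interval was chosen by values of these tables. The part of repeated sequence and read placement in them was not tested. Repeats were frequent. At least 50% of the 50-base stretches recurred on the chromosome in 77 of 206 windows with known sequence in F1 (37.4%, against 10.5% of windows elsewhere on it). In F3 this held for 99 of 192 (51.6%, against 8.55%). After the count filter 113 member windows were tested in F1 and 104 in F3.

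In F1, 3 of the 113 windows had an FDR under 0.05 by the quasi-likelihood test of edgeR, 2 higher and 1 lower in TBT, where 0.0318% of all windows did, 0.00579% higher and 0.0260% lower. The window chr4:145560501-145560600, in the pseudogene Gm21978 with 1 CpG, had 21.7, 26.02 and 16.2 CPM in DMSO and 44.7 to 45.04 in 3 TBT-libraries and 54.1 in the other (log2 difference 1.20, SE 0.27, FDR 0.0425). Those values rest on 10, 9 and 8 counts in DMSO and 34, 38, 21 and 53 in TBT. Its neighbour chr4:145560601-145560700, which has no CpG, had 34.8, 31.8 and 28.4 CPM in DMSO and 63.0, 65.2, 68.6 and 62.3 in TBT (log2 difference 1.02, SE 0.23, FDR 0.0425). Whether the difference at this window without a CpG is one of methylation was not tested. The window chr4:146740801-146740900 in an intron of Gm26573, with 4 CpG sites, went the other way, with 130, 156 and 120 CPM in DMSO and 73.6, 72.3, 90.0 and 85.8 in TBT (log2 difference -0.74, SE 0.16, FDR 0.0174). DMSO- and TBT-libraries did not overlap at any of the 3. DESeq2 called 0 of the 34559 windows, members or not, and leaving out any 1 library left 0 or 1 member called and 0 to 12 windows in all.

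The sign of the F1 differences varied along the interval. Between 0.5 and 1 Mb from the start of the interval 12 of 13 tested windows were higher in TBT, with a median log2 difference of 0.39, and between 1.5 and 2 Mb 11 of 14 were lower with a median of -0.46, followed by 17 of 24 lower between 2 and 2.5 Mb with a median of -0.32. The other 4 stretches had 6 of 8, 2 of 5, 15 of 23 and 10 of 26 windows higher, with medians of 0.12, -0.29, 0.07 and -0.08. In all, 26 of 113 (23.0%) had an unadjusted p under 0.05, against 5.01% of all windows. In F3 the medians of the 7 stretches lay between -0.15 and 0.11, no member was called (0 of 104, 0% of all windows) and 9 had an unadjusted p under 0.05, against 5.19% of all windows. No F3 window overlapped the called F1 windows. The nearest to chr4:146740801-146740900 lay 2.50 kb away with a log2 difference of 0.06 (FDR 0.994), and the nearest to Gm21978 lay 5.30 kb away and was not tested. The tables of the generations shared 943 windows, of which 1 was a member and it did not pass the filter, so the F1 and F3 differences could not be compared at member windows. The CpG-rich window chr4:145837301-145837400, in the pseudogene Gm13238, had 170 ± 21.7 CPM in DMSO and 166 ± 28.2 in TBT in F3 (log2 difference -0.04, SE 0.10, FDR 0.991).

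**Figure D5:**
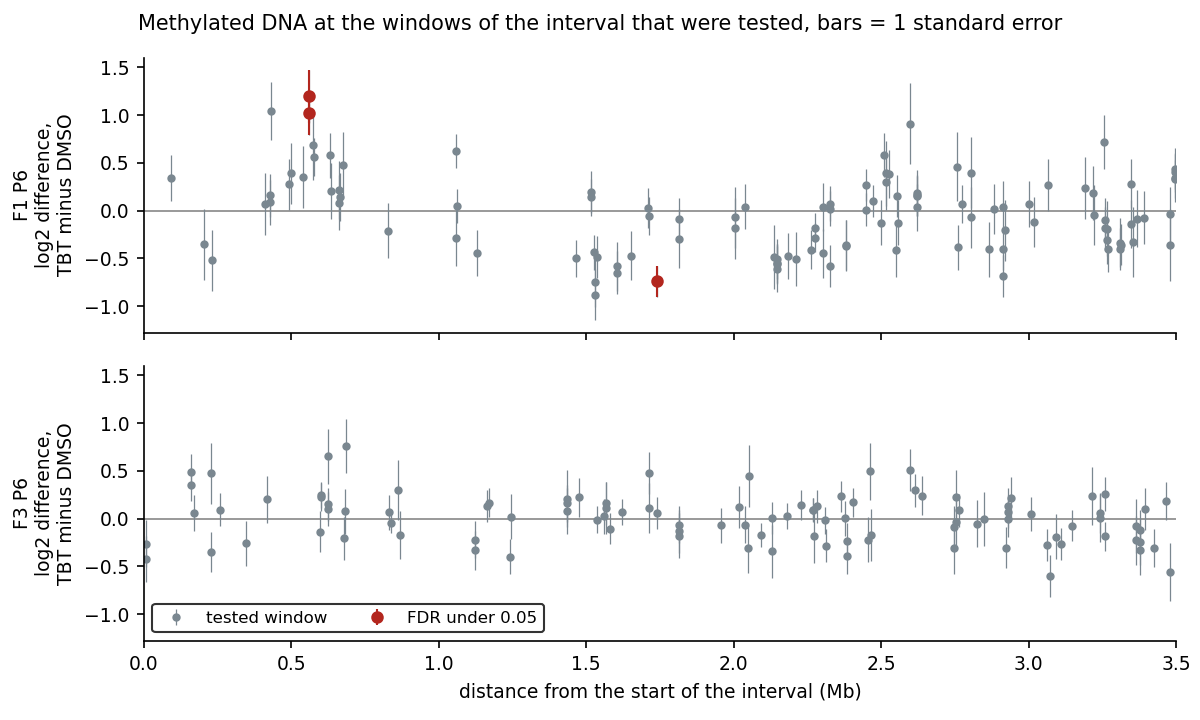
Log2 difference in methylated DNA between TBT and DMSO in P6 at each tested member window, by distance from the start of the interval, in F1 (above) and F3 (below), with bars of 1 standard error. Called windows are marked, 2 at 1.20 and 1.02 and 1 at -0.74 in F1, and none in F3.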

How the data were processed

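Values of LTR loci were deposited as read signal per RepeatMasker locus, which the authors made from oligo(dT)-primed SMART-seq libraries with STAR on mm10 and a modified ERVmap pipeline, scaled by TMM to the CPM scale. Tools named in the submitters' processing notes are Trim Galore, STAR and edgeR, and their versions are not given in the sources used here. How multi-mapping or spliced reads were counted is also not given. All values above 0 were whole reads times 1 factor per library (100%, tolerance 0.01), so reads were recovered. For methylated DNA the authors deposited counts per 100-base window after capture with a methyl-binding protein. Their QSEA model with an input library was not repeated.

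RNA was tested with limma (3.58.1, trended variance) on log2(value + 1 unit), a unit being what 1 read is worth in the middle library of a table, with a minimum mean of 5 units for a locus to enter, so fold changes of low loci are understated. Each TBT comparison used the libraries of its population, and P5 minus P4 used all germline libraries of a generation. Windows were tested with edgeR (4.0.16) quasi-likelihood, TMM and filterByExpr. FDR was Benjamini-Hochberg over all loci or windows tested, with a threshold of 0.05. DESeq2 (1.42.0), other scalings, filters, pseudocounts and count tests and leaving out each library were tried. Fits were tested on simulated data, and R (4.3.3) and Python (3.11.15) were used. Whether libraries came from separate animals is not given for each label, so p-values measure the spread between these libraries. Depth limits precision. Libraries held 246520 to 8161548 reads at LTR loci.

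The members and lists were chosen with earlier results of these data known. Named loci were, per TBT comparison, up to 3 higher and 3 lower with an FDR under 0.05 and groups without overlap, or else the 2 with the smallest p, the same per P5 minus P4 comparison, the 3 highest per population, and up to 5 gained and 5 lost windows. Others are marked as chosen after their values were seen, or belong to zinc finger, comparison or Fv1 gene lists. Gene ends, identities and hexamers came from GENCODE and the mm10 genome.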

Additional observations from a re-analysis of the deposited data

Results flagged for a closer look

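Of 20 groups of libraries checked for 1 library far from the others, 2 were flagged, where chance alone flags about 1 in 20. In the F3 P5 TBT-group, 0.542% of the LTR reads of library 5 fell in the interval, and the other 4 libraries had 0.235% to 0.306%. That library had 246520 reads, the fewest of all, and a germ cell marker sum of 140 CPM. In the F1 methylated-DNA TBT-group, library 7 had 54.1 CPM at window chr4:145560501-145560600, and the other 3 had 44.7 to 45.04 CPM.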

How the results depend on the processing

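For P5 minus P4 in F3, 13 members were called, against 0.996% of all loci. They became 20 with a pseudocount of 4 units (1.22% of all loci), 6 with no filter (0.0949%), 3 with a minimum mean of 20 units (0.583%), 25 with median-ratio scaling (1.75%), 49 by the quasi-likelihood test of edgeR (6.56%), 67 by its likelihood ratio test (9.25%), and 20 without label numbers that had a library under 2000000 reads. Leaving out each label number in turn gave 4 to 34 (0.294% to 2.30% of all loci), the most without number 5. In F1, P5 minus P4 gave 186 with no filter (7.66% of all loci) and 71 with a minimum mean of 20 units (57.5%) in place of 121 (37.3%), and 107 to 123 (30.6% to 37.6%) without 1 label number. These leave-outs and the read limit were chosen after seeing the data. For TBT minus DMSO the likelihood ratio test called 1 member in F1 P4, 4 in F3 P5 and 18 in F3 P6, where 0, 0 and 1 had been called, and 3 of 1194 were called in F1 P5 with no filter (0.202% of all loci). Leaving out 1 library gave 1 to 2 in F3 P6 (0.0114% to 0.136% of all loci), with 2 and 0.136% without DMSO replicate 2. The 3 F1 windows became 0 with no filter and 0 by DESeq2, which left 0 windows called in the whole table too, and 0 to 1 without 1 library (0 to 12 in all). Median-ratio scaling moved the median of all loci by 0.24 in F3 P4 and -0.14 in F3 P5 (TBT minus DMSO) and by 0.13 in F1 and 0.34 in F3 (P5 minus P4) on the log2 scale. The cause of these changes was not tested.

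P4 and P5 libraries share label numbers. Correlations of same-numbered deviations ran from -0.01 to 0.28 in F1 and from -0.09 to 0.46 in F3. Some numbers correlated more with themselves than with any other, such as 47-5 in F1 (0.28 against 0.21) and 5 in F3 (0.40 against 0.08). Others did not, such as 43-4 in F1 (0.01 against 0.02) and 6 in F3 (0.46 against 0.61). The numbers were not taken as pairs in the main test, which therefore ignores any pairing. With the replicate block, 131 members were called in F1 (43% of all loci) and 26 in F3 (2.20%), and 0 in the difference of TBT effects in either generation. The log2 difference at window chr4:145837301-145837400 in F3, not called, ran from -0.108 to 0.0205 when 1 library was left out, and changed sign to 0.0205 without DMSO replicate 3 and 0.01 without TBT replicate 8. Of 765 recomputed values for 44 named results at 34 loci and windows, 689 kept direction and call, 36 gained a call, 38 lost it and 2 changed sign.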
